A study of Mus musculus with 39 samples.

Results

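The respiratory chain genes described here are the mitochondrially encoded genes and the nuclear genes for subunits of complexes I to V. They were chosen by symbol, from the Ensembl identifiers of the gene tables, and selected on a level of at least 1 FPKM (fragments per kilobase of transcript scaled to library size) in at least 4 libraries of a tissue. In lung 119 of 55357 genes met this, namely 13 mitochondrial mRNAs, 2 mitochondrial rRNAs, 22 mitochondrial tRNAs and 82 nuclear subunit genes. In colon 116 genes met it, namely the same 13 mRNAs and 2 rRNAs, 20 tRNAs and 81 nuclear genes. The nuclear genes were 35 of complex I, 4 of complex II, 8 of complex III, 17 of complex V and, of complex IV, 18 in lung and 17 in colon. In lung the member nearest the limit was the tRNA mt-Tf, at 1 FPKM or more in 13 libraries. In colon the least abundant members were Cox8b, at 1 FPKM or more in 4 libraries, and Cox4i2, in 17. The nearest outside were the tRNA mt-Tv, at that level in 3 colon libraries, and mt-Tf, in 1. Cox6a2 in colon, Cox7b2, Cox8c and a second Atp5o identifier reached it in 0 libraries, and Ensembl IDs annotated as pseudogenes or non-coding were left out.

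The study sequenced mRNA of lung and colon from Cd177 knockout (KO) and wild-type (WT) C57BL/6N mice, each with acute pancreatitis (AP) or after a sham operation. Every mouse thus shared the strain, and the KO groups shared the deletion of Cd177, a surface glycoprotein of neutrophils. The 8 groups were KO AP, KO sham, WT AP and WT sham in lung and the same 4 in colon, with 5 libraries each except colon KO AP, which had replicates 1, 3, 4 and 5. The sources used here give no method of inducing AP, time of sampling, age or sex, and do not say that libraries of a group came from separate mice, so p-values measure the spread between these libraries.

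The respiratory chain pumps protons out of the mitochondrial matrix as electrons pass from NADH or succinate to oxygen, and ATP synthase uses the gradient. Complexes I, III, IV and V join subunits made from both genomes, whereas complex II is wholly nuclear. The mitochondrial genes are transcribed as long precursors from which tRNAs are cut, and the nuclear genes are each transcribed on their own.

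Sequences are shown first for 2 pairs of neighbouring mitochondrial genes. The FPKM of each pair moved apart although its genes lie on shared RNAs and share bases. The end of mt-Atp8, which encodes a small ATP synthase subunit, overlaps the start of mt-Atp6, which encodes the proton channel subunit, by 43 bases. The end of mt-Nd4l overlaps the start of mt-Nd4, both for membrane subunits of complex I, by 7 bases. The lines give 60 bases of each, 5′ to 3′, from the GENCODE M21 transcripts, with the shared bases in capitals.
mt-Atp8 end: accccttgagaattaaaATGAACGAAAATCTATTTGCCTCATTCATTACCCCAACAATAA
mt-Atp6 start: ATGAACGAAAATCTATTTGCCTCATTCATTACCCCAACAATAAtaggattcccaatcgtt
mt-Nd4l end: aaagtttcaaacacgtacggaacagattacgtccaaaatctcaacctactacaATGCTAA
mt-Nd4 start: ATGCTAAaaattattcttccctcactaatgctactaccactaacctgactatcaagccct

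The upstream bases of 2 nuclear members are shown because both hold the same motif, while Ndufa11 was among the members that rose most in KO lung and Atp5k the member that fell most in KO colon. GCATGCGC, part of the binding motif of NRF1, a nuclear activator of respiratory chain genes, was searched on both strands (its reverse form is GCGCATGC) in RefSeq promoters of build GRCm38.p6, from 250 bases before to 50 after a start. Of 82 nuclear members, 67 matched a promoter and 10 of those held the motif (14.9%), against 3.93% of 17491 protein-coding genes. The lines give the 250 bases before the start of Ndufa11, a membrane arm subunit of complex I (chr17:56717512-56717761, plus strand), and of Atp5k, a small subunit of ATP synthase (chr5:108434400-108434649, minus strand), 5′ to 3′ with the motif in capitals, where both strand forms overlap.
Ndufa11: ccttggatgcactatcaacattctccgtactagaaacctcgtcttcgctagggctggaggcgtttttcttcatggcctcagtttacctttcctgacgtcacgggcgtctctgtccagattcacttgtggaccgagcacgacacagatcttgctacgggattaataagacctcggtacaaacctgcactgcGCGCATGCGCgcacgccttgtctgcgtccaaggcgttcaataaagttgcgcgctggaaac
Atp5k: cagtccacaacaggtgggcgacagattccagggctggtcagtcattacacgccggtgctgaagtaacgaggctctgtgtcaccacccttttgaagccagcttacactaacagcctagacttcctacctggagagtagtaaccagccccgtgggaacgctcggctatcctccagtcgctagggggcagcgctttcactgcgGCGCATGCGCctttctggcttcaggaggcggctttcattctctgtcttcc

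Cd177 itself was at 0 FPKM in all KO libraries, and between 1.3 and 4.18 FPKM in WT lung and between 38.5 and 76.4 FPKM in WT colon. Depth, read from the FPKM steps that 1 read gives and in megareads (M), was 77.0 to 95.4 M reads in KO lung against 57.9 to 71.2 M reads in WT lung, and 77.7 to 98.6 M reads in KO colon against 55.6 to 78.3 M reads in WT colon. Of values of 1 to 10 reads, 54.0% to 59.2% were even numbers in KO lung against 46.0% to 49.1% in WT lung, and 56.2% to 59.6% in KO colon against 45% to 51.2% in WT colon. Genotype and these library differences cannot be told apart. Lung KO AP replicate 3 stood apart with muscle and brown fat markers. Its 8 skeletal muscle markers summed to 3607 FPKM, against 4.26 to 19.5 FPKM in every other lung library, and Ucp1, the uncoupling protein of brown fat, was at 181 FPKM, against at most 0.0911 FPKM elsewhere. Lung KO sham replicate 5 had the lowest mitochondrial mRNA sum of all libraries, 14529 FPKM, and the highest nuclear sum of lung. Earlier results of these data also set KO sham replicate 4 apart. Its nuclear sum and ratio lay with its group, while its club and ciliated cell markers summed to 78193 FPKM, against 28431 to 36169.5 FPKM in the other 4 KO sham libraries. Results are given without these 3 KO libraries where that changes them.

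In lung, KO libraries held more nuclear respiratory chain mRNA than WT libraries in both conditions. Of the 82 nuclear members, 50 were higher and 0 lower in KO AP than in WT AP at an adjusted p under 0.05 (limma on log2(FPKM + 1), Benjamini-Hochberg over 15978 genes; such genes are called), with a median log2 change of 0.68. The background was large, since 27.6% of all lung genes tested were called higher and 28.1% lower in this comparison, with a median of 0.00 over all genes. In KO sham against WT sham 66 of 82 were called higher and 0 lower, with a median of 0.87, against 28.8% called higher, 30.0% called lower and a median of -0.01 over all genes. Every KO AP library lay above every WT AP library for 39 of the 82, where 19.3% of all lung genes tested did so, and every KO sham library above every WT sham library for 54, where 19.3% of all did so. The 2 comparisons shared 49 called members.

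Summed over the 82 nuclear members, lung levels were 11329, 9603, 19049, 9358 and 8494 FPKM in KO AP, against 6494, 6531, 6112, 8099 and 5946 FPKM in WT AP. They were 11417, 10044, 8865, 8299 and 20482 FPKM in KO sham, against 5977, 5886, 5484, 5603 and 6840 FPKM in WT sham. KO libraries lay above WT libraries in both conditions with no overlap, and KO AP replicate 3 and KO sham replicate 5 held the highest sums. Without these and KO sham replicate 4, 60 of 82 were called in AP, 59 of them higher, and 70 in sham. WT AP replicate 4 held the highest WT sum, and without it 53 of 82 were called higher in AP and 64 in sham, with 0 lower. The shares of all genes called without these libraries are not given here, so these counts are not set against a background. In bulk tissue, more cells of a type and more RNA per cell cannot be told apart.

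Cell type markers of lung also differed between the genotypes. Of 9 club and ciliated cell markers 6 were called higher and 0 lower in AP, and 2 higher and 2 lower in sham, with sums of 25317 to 139901 FPKM in KO AP against 48504 to 88373 FPKM in WT AP and of 28431 to 78193 FPKM in KO sham against 44648 to 70168 FPKM in WT sham, most of it Scgb1a1 of club cells. Foxj1, the regulator of motile cilia, had 110, 113, 72.8, 109 and 111 FPKM in KO AP against 45.6, 39.4, 51.6, 50.3 and 38.1 FPKM in WT AP, without overlap, whereas in KO sham it ran from 25.1 to 149 FPKM, across the WT sham range of 39.9 to 50.7 FPKM. Red cell markers summed to 1376 to 3322 FPKM in KO AP against 6166 to 17152 FPKM in WT AP, with 5 of 5 called lower, and to 1100.4 to 12283 FPKM in KO sham against 5486 to 14939 FPKM in WT sham, with 0 of 5 called by limma and 0 at an unadjusted p under 0.05. Of 9 alveolar markers 1 was called higher and 4 lower in each condition. The part of these cell types in the nuclear changes was not tested.

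**Figure D1:**
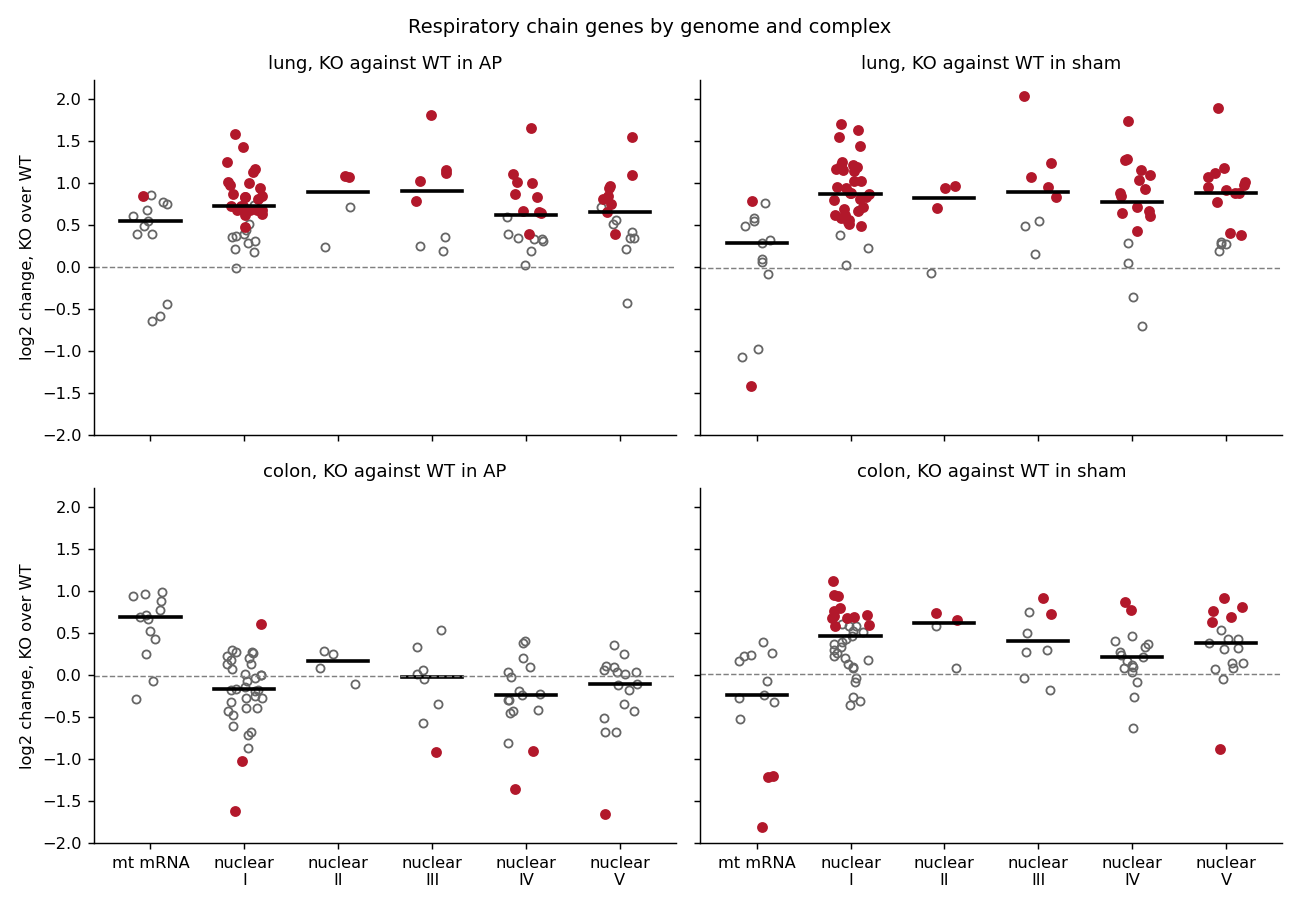
Log2 change of KO over WT for each mitochondrial mRNA and each nuclear member by complex, in AP (left) and sham (right), in lung (top) and colon (bottom). Filled points are called at an adjusted p under 0.05, black lines are medians and the dashed line is the median of all genes tested. In lung the nuclear medians of all 5 complexes lie above 0.6, and in colon AP most nuclear points lie near or below 0 while 11 of 13 mitochondrial mRNAs lie above it.

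By complex, in KO AP against WT AP, complex I, the NADH dehydrogenase, had 24 of 35 members called higher with a median log2 change of 0.72. Ndufs7, an iron-sulfur subunit of its hydrophilic arm, had 218, 225, 328, 207 and 209 FPKM in KO AP lungs against 71.0, 72.9, 72.6, 111 and 65.8 FPKM in WT AP lungs. It had 222, 191, 169, 150 and 369 FPKM in KO sham lungs against 69.2, 61.7, 62.2, 63.0 and 80.3 FPKM in WT sham lungs. No KO library fell as low as any WT library of its condition. The log2 change was 1.58 ± 0.20 (SE, limma adjusted p = 5.06e-06) in AP and 1.63 ± 0.20 in sham. Ndufa11, whose upstream bases are shown, had 173, 112, 261, 151 and 116 FPKM in KO AP against 56.6, 52.3, 50.2, 84.6 and 48.0 FPKM in WT AP, again with no overlap, and a log2 change of 1.42 ± 0.26.

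Complex III, the cytochrome bc1 complex, had 5 of 8 members called higher in KO in either condition. Uqcrq, a small subunit bound near cytochrome b, had 185, 108, 184, 113 and 108 FPKM in KO AP against 35.3, 36.2, 35.8, 53.8 and 31.6 FPKM in WT AP. In sham it had 231, 166, 95.6, 85.1 and 309 FPKM in KO against 39.8, 34.8, 36.4, 32.7 and 45.8 FPKM in WT. Its log2 change of 1.81 ± 0.28 in AP and 2.04 ± 0.28 in sham was the highest of the nuclear members in both. Uqcrfs1, the Rieske iron-sulfur protein, averaged 115 FPKM in KO AP and 44.9 FPKM in WT AP (log2 change 1.16 ± 0.25), and Uqcrh, the hinge protein, 353 FPKM in KO sham and 139 FPKM in WT sham (1.23 ± 0.24). KO AP replicate 3 had 250 FPKM of Uqcrfs1, against 70.3 to 92.4 FPKM in the other KO AP libraries. KO sham replicate 5 had 669 FPKM of Uqcrh, against 253 to 306 FPKM in the other KO sham libraries.

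Complex IV, cytochrome c oxidase, had 10 of 18 nuclear members called higher in AP and 14 of 18 in sham. Cox5a, which binds the matrix side of the catalytic core, had 214, 136, 455, 192 and 134 FPKM in KO AP against 62.0, 70.5, 51.3, 84.1 and 56.7 FPKM in WT AP. The lowest KO AP library was above the highest WT AP library, and without the 3 KO libraries the log2 change was 1.36, against 1.65 ± 0.26 with all. The ubiquitous isoforms rose with it: in KO sham against WT sham Cox4i1 rose by 1.15 ± 0.24, Cox6a1 by 0.93 ± 0.25, Cox6b1 by 1.10 ± 0.24, Cox7a2 by 1.27 ± 0.24 and Cox8a by 0.60 ± 0.14 on the log2 scale, and all 5 were also called higher in AP. In AP the call of Cox6a1 was lost without KO AP replicate 1 or 3 or WT AP replicate 1, 2, 3 or 5 (adjusted p up to 0.104), and that of Cox8a without KO AP replicate 1 or 3 or WT AP replicate 1 or 5 (up to 0.0695). Ndufa4, a subunit of complex IV despite its name, rose by 1.28 ± 0.21 in sham and 1.0 ± 0.21 in AP. Cox7a2l, a supercomplex assembly factor, was not called, with log2 changes of 0.28 ± 0.23 in sham and 0.03 ± 0.23 in AP.

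Isoforms tied to a condition or cell type moved less evenly. Cox4i2, a lung isoform of subunit IV linked to oxygen sensing, averaged 122 FPKM in KO sham lungs and 58.0 FPKM in WT sham lungs (log2 change 0.89 ± 0.28, limma adjusted p = 0.00973), whereas in AP its change of 0.60 ± 0.28 was not called (adjusted p = 0.0725). Ndufa4l2, a hypoxia-induced relative of Ndufa4, rose by 0.71 ± 0.25 in sham and had a change of 0.33 ± 0.25 in AP. Without the 3 KO libraries both were also called in AP, with changes of 0.75 and 0.45. Their sham changes then fell to 0.53 and 0.38 (limma adjusted p = 0.0345 and 0.0483). KO sham replicate 5 had 246 FPKM of Cox4i2, against 53.8 to 107 FPKM in the other KO sham libraries. For Ndufa4l2 it had 100 FPKM, against 24.0 to 41.9 FPKM. Cox6b2, the testis isoform, was called higher in sham at 0.42 ± 0.18 (limma adjusted p = 0.0468), a call that most single libraries left out ended, with 0.24 (adjusted p = 0.158) without KO sham replicate 5. Smooth muscle markers, among whose cells Cox4i2 is known, summed to 303 to 702 FPKM in KO AP (303 to 499 FPKM without replicate 3, where Des, also a gene of skeletal and heart muscle, was at 384 FPKM) against 178 to 311 FPKM in WT AP and to 299 to 604 FPKM in KO sham against 175 to 213 FPKM in WT sham. Of the 6 markers 5 were called higher and 1 lower in AP, and 4 higher and 1 lower in sham. Their part in these results was not tested.

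The muscle isoforms of complex IV marked 1 library. Cox8b, a subunit of heart, skeletal muscle and brown fat, had 4.96, 14.2, 180, 6.10 and 2.78 FPKM in KO AP lungs against 13, 8.71, 5.78, 14.6 and 6.93 FPKM in WT AP lungs. Cox6a2, of heart and skeletal muscle, had 25.3, 37.4, 156, 13 and 13.6 FPKM in KO AP against 33.5, 20.4, 15.4, 33.6 and 22.3 FPKM in WT AP. Cox7a1, also of muscle and brown fat, had 7.18, 14.1, 70.9, 5.99 and 3.13 FPKM in KO AP against 11.5, 7.24, 6.61, 11.4 and 7.87 FPKM in WT AP. All 3 were highest in KO AP replicate 3, the library with muscle and brown fat markers, and the other KO AP libraries overlapped the WT AP libraries. The 13 heart muscle markers summed to 4710 FPKM in that library, and none of these isoforms was called in lung. In AP the log2 change of Cox8b was 0.39 ± 0.76 with that library and -0.55 without the 3 KO libraries.

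**Figure D2:**
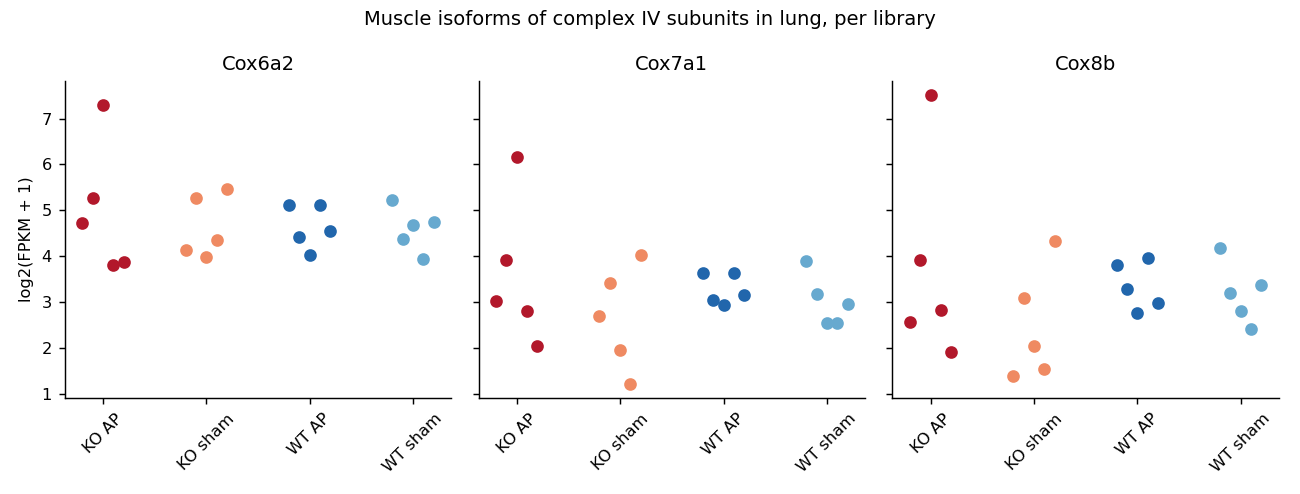
Levels of Cox6a2, Cox7a1 and Cox8b in each lung library as log2(FPKM + 1), in KO AP, KO sham, WT AP and WT sham. The highest point of each panel, 156, 70.9 and 180 FPKM, is KO AP replicate 3, and the other 19 libraries overlap across groups.

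Complex V, ATP synthase, had 9 of 17 members called higher in AP and 13 of 17 in sham. Atp5g3, which encodes a c subunit of the rotor ring, had 317, 248, 390, 312 and 249 FPKM in KO AP against 130, 141, 136, 166 and 128 FPKM in WT AP. Its groups did not overlap, and the log2 change was 1.09 ± 0.15. Atp5g1, which encodes the same c subunit protein, rose by 1.55 ± 0.35 in AP and 1.90 ± 0.35 in sham. Complex II, succinate dehydrogenase, had 2 of 4 members called higher in AP and 3 of 4 in sham. Its membrane anchors Sdhc and Sdhd were called higher in both, by 1.09 ± 0.18 and 1.07 ± 0.20 in AP, and its iron-sulfur subunit Sdhb rose by 0.94 ± 0.31 in sham. The flavoprotein Sdha, on which the enzyme's catalysis rests, was not called, with changes of 0.24 ± 0.19 in AP and -0.08 ± 0.19 in sham.

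These nuclear members are short. Their longest annotated transcripts had a median of 997.5 bases in lung, against 2982 bases over all lung genes tested. Over 15879 lung genes the rank correlation between the log2 change and length was -0.34 in AP and -0.44 in sham, a description across genes that share libraries. With this length trend removed, 36 of 82 members were called higher and 1 lower in AP, with a median of 0.40, and 37 higher and 1 lower in sham, with a median of 0.46. On a TPM scale (each library scaled to the same sum), where the median of all genes moved to -0.18 in AP and -0.26 in sham, 37 were called higher and 1 lower in AP and 47 higher in sham. On the same scale, and before any shift by those all-gene medians, the nuclear members had medians of 0.49 in AP and 0.60 in sham. The shares of all genes called under these settings are not given here, so these counts are not set against a background. The member called lower in AP was Atp5k, at -0.62 with the length trend removed, -0.63 on the TPM scale and -0.54 without the 3 KO libraries, and that in sham was Ndufa6, an accessory subunit of complex I; both were named after their values were seen.

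The mitochondrial mRNAs of lung did not move as a block. In KO AP against WT AP 1 of 13 was called higher and 0 lower, with a median log2 change of 0.54. In KO sham against WT sham 1 was called higher and 1 lower, with a median of 0.29, which turned to -0.16 with the length trend removed and was 0.01 on the TPM scale. Over all 37 mitochondrial genes 4 were called higher and 4 lower in AP, against 27.6% and 28.1% of all lung genes tested. The background in sham was 28.8% called higher and 30.0% lower. In AP the 37 had 1 called higher and 5 lower on the TPM scale, and 13 higher and 0 lower without WT AP replicate 4. mt-Co3, a core subunit of complex IV, had 1979, 2925, 4878, 6237 and 2625 FPKM in KO AP against 1858, 1579, 1309, 4270 and 1519 FPKM in WT AP. All KO AP libraries were above 4 of the 5 WT AP libraries, and WT AP replicate 4 lay above 3 of the 5 KO AP libraries. The change of 0.84 ± 0.34 (limma adjusted p = 0.0414) lost its call without KO AP replicate 3 (adjusted p = 0.0975) and without KO AP replicate 4 or WT AP replicate 1, 2, 3 or 5 (up to 0.127). mt-Co2, the copper-binding core subunit, had 5417, 3942, 3094, 2660 and 3388 FPKM in KO sham against 1818, 2093, 1766, 2055 and 2883 FPKM in WT sham. One KO sham library fell below the highest WT sham library, and the change was 0.78 ± 0.32 (limma adjusted p = 0.0427). That call was lost without KO sham replicate 1 or 2, WT AP replicate 1 or WT sham replicate 1, 2, 3 or 4 (up to 0.109).

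mt-Nd4l went the other way. It had 689, 727, 688, 699 and 65.8 FPKM in KO sham against 874, 1252, 1034, 1207 and 1631 FPKM in WT sham. All KO sham libraries were below all WT sham libraries, and replicate 5 was far below the other 4. The log2 change was -1.42 ± 0.56 (limma adjusted p = 0.0355), and -0.74 (adjusted p = 0.106) without that library. The call was also lost without WT sham replicate 2, 4 or 5 (up to 0.074). mt-Nd5, a large antiporter-like subunit of complex I, and mt-Atp8 had changes of -0.98 ± 0.43 and -1.07 ± 0.48 in sham that were not called. In AP the 3 lowest of the 13 changes were those of the same mt-Nd5, mt-Nd4l and mt-Atp8, at -0.64, -0.59 and -0.44. On the TPM scale these 3 were called lower in sham.

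**Figure D3:**
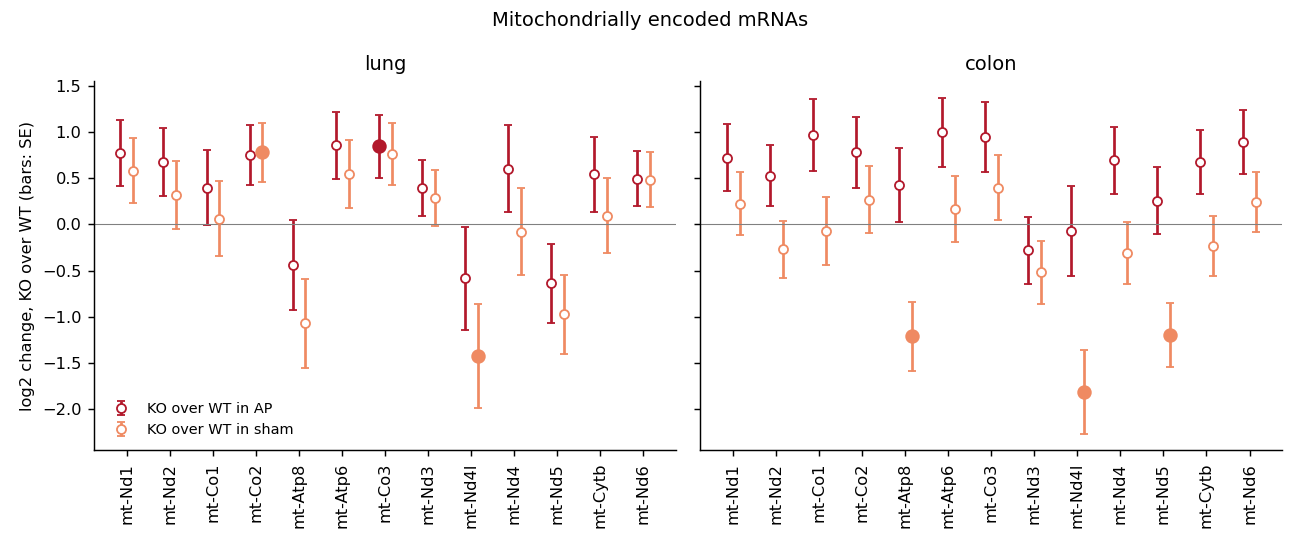
Log2 change of KO over WT with its SE for the 13 mitochondrial mRNAs in lung (left) and colon (right), in AP and sham, with filled points called at an adjusted p under 0.05. Genes run in the order of the mitochondrial genome except mt-Nd6, and mt-Atp8, mt-Nd4l and mt-Nd5 lie lowest in both tissues in sham.

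The rRNAs and tRNAs were also unequal. mt-Rnr1, the small subunit rRNA, averaged 527 FPKM in KO AP and 261 FPKM in WT AP (log2 change 1.02 ± 0.28, limma adjusted p = 0.00482), and rose by 0.71 ± 0.28 in sham, a call lost without KO sham replicate 1 or 2 or WT sham replicate 1, 2, 3 or 4 (up to 0.0987). mt-Rnr2, the large subunit rRNA, had changes of 0.60 ± 0.28 and 0.34 ± 0.28 that were not called. Of 22 tRNAs, 2 were called higher (mt-Ti and mt-Ts1) and 4 lower (mt-Tw, mt-Ta, mt-Tn and mt-Tc) in AP. In sham mt-Ts1 was called higher and mt-Tn, mt-Tc and mt-Ty lower. Each of these tRNA shares was below that of all lung genes tested, 27.6% higher and 28.1% lower in AP and 28.8% and 30.0% in sham. The 5 that fell are those of the tRNA cluster between mt-Nd2 and mt-Co1. The libraries were enriched for mRNA and the sources used here do not say that strand was counted. Reads of a tRNA, of its precursor and of a gene on the other strand then cannot be told apart, and near-identical nuclear copies of mitochondrial genes make single levels uncertain.

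The ratio of mt-Atp8 to mt-Atp6 separated the genotypes in both tissues. It was chosen after its values were seen and is given without a test. In lung the ratio ran from 0.160 to 0.252 in KO AP against 0.444 to 0.606 in WT AP, and from 0.0753 to 0.222 in KO sham against 0.474 to 0.582 in WT sham. In colon it ran from 0.235 to 0.337 in KO AP against 0.363 to 0.522 in WT AP, and from 0.156 to 0.242 in KO sham against 0.483 to 0.622 in WT sham. The ratio of mt-Nd4l to mt-Nd4 ran from 0.171 to 0.407 in KO AP lungs against 0.637 to 0.686 in WT AP lungs, and from 0.285 to 0.358 in KO AP colons against 0.462 to 0.692 in WT AP colons. No KO library overlapped a WT library of its tissue and condition in either ratio, sham included. The depth and the share of even read numbers given above also separated, or nearly separated, the genotypes, and their part in these ratios was not tested. The upper gene of each ratio is also the shorter, with 204 bases against 681 for mt-Atp6 and 297 against 1378 for mt-Nd4. The part of gene length and of reads in the shared bases was not tested either.

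**Figure D4:**
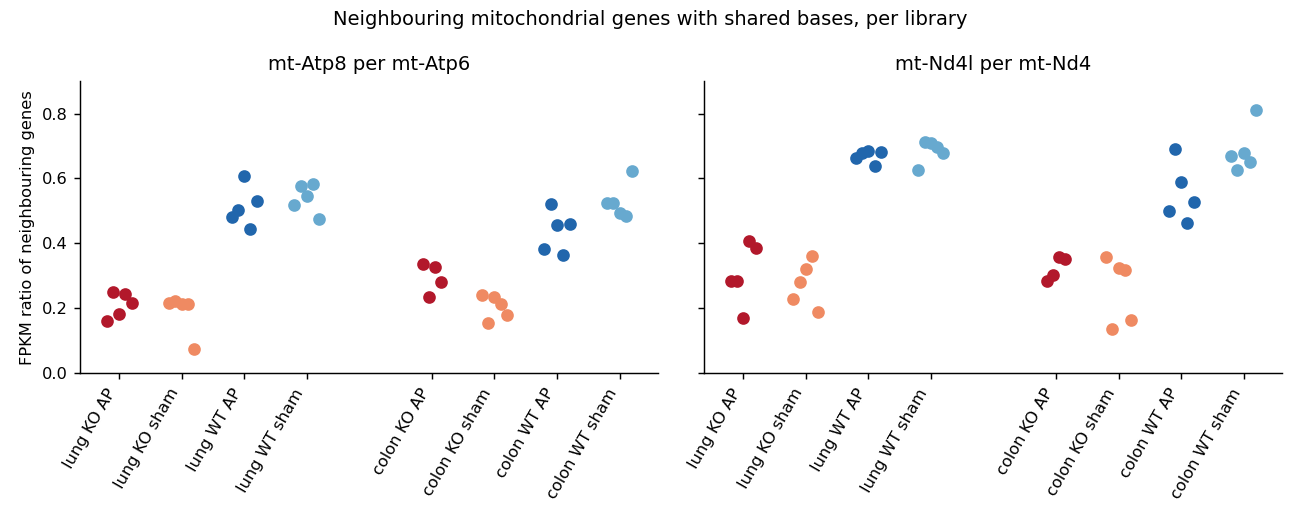
FPKM ratio of mt-Atp8 to mt-Atp6 (left) and of mt-Nd4l to mt-Nd4 (right) in each library of KO AP, KO sham, WT AP and WT sham, in lung and colon. Each point is 1 library, and KO points lie below WT points of the same tissue, between 0.0753 and 0.337 against 0.363 to 0.622 for mt-Atp8 to mt-Atp6.

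In colon more nuclear members were called higher than lower in KO sham. In KO AP more were called lower than higher, as among all genes tested. The test of the difference between the conditions called none of the nuclear members. In KO sham against WT sham 23 of 81 were called higher and 1 lower, with a median log2 change of 0.38, against 16.0% called higher, 15.4% lower and a median of 0.01 over 15001 genes. In KO AP against WT AP 1 was called higher and 6 lower, with a median of -0.11, against 7.37% called higher, 10.9% lower and a median of -0.01. On the TPM scale 1 was called higher and 18 lower in AP, and 22 higher and 2 lower in sham. The sham median on that scale was 0.20. The colon members had a median length of 1001 bases, against 2996 over all colon genes tested. The rank correlation between log2 change and length was -0.32 in sham and -0.05 in AP. With this length trend removed 16 were called higher and 2 lower in sham (median 0.15), and 1 higher and 10 lower in AP. All-gene shares under these settings are not given here. The AP calls depended on single libraries. They were 0 higher and 2 lower without KO AP replicate 4, 0 and 3 without WT AP replicate 1 or 2, 1 and 3 without KO AP replicate 1 or WT AP replicate 4 or 5, and 0 and 4 without KO AP replicate 3 or, of the sham libraries in the shared fit, KO sham replicate 4 or WT sham replicate 1, 4 or 5. Without KO sham replicate 2 they were 1 higher and 11 lower. Without WT sham replicate 2 the sham comparison had 37 called higher and 0 lower. With all libraries, the share called higher and the share called lower in AP were both below the background. In the test of the difference 0 of 81 nuclear members were called, and 14 had an unadjusted limma p under 0.05, all lower. Many genes outside the members also lay under that threshold, since Ndufa11, at a limma p of 0.0460, had an adjusted p of only 0.257. The 14 are therefore not read as a result about the members. All 23 members called higher in colon in sham were also called higher in lung in sham.

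Ndufs7 was the only nuclear member called higher in KO in all 4 comparisons of genotype. In colon it had 190, 237, 253 and 285 FPKM in KO AP against 158, 118, 145, 185 and 188 FPKM in WT AP, and 230, 435, 236, 247 and 222 FPKM in KO sham against 116, 157, 104, 126 and 106 FPKM in WT sham. Its groups did not overlap in either condition. The log2 change was 0.61 ± 0.20 (limma adjusted p = 0.0436) in AP, a call lost without any of 10 single libraries (adjusted p up to 0.124), and 1.13 ± 0.19 in sham. Uqcrfs1 had 275, 560, 239, 260 and 270 FPKM in KO sham against 153, 218, 142, 151 and 146 FPKM in WT sham, without overlap, and rose by 0.92 ± 0.22. Others that rose in sham were Ndufc1 of complex I (0.96 ± 0.25), Uqcrc1, a core protein of complex III (0.73 ± 0.18), Cox7a2 (0.87 ± 0.24), Cox5a (0.78 ± 0.25, lost without KO sham replicate 2 or WT sham replicate 3), Atp5d, the delta subunit of ATP synthase (0.81 ± 0.22), Atp5g1 (0.92 ± 0.34, lost without any of 12 single libraries, adjusted p up to 0.138), Sdhc (0.75 ± 0.17) and Sdhd (0.65 ± 0.17).

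The 6 members called lower in KO AP colons belonged to complexes I, III, IV and V. Their share of the 81 was below the 10.9% of all genes tested, so they are not read as a fall of the members together. Atp5k had 71.1, 59.7, 84.6 and 96.1 FPKM in KO AP against 327, 237, 149, 242 and 306 FPKM in WT AP, and 92.0, 252, 85.0, 102 and 118 FPKM in KO sham against 216, 352, 146, 203 and 226 FPKM in WT sham. The AP groups were far apart, while KO sham replicate 2 lay within the range of WT sham. The log2 change was -1.65 ± 0.30 (limma adjusted p = 0.00203) in AP and -0.88 ± 0.29 (adjusted p = 0.0262) in sham, where the call was lost without KO sham replicate 1, 3 or 4 or WT sham replicate 2 or 5 (up to 0.0686). Ndufa3, an accessory subunit of complex I, had 34.3, 74.4, 46.9 and 92.3 FPKM in KO AP against 217, 149, 131, 201 and 212 FPKM in WT AP, without overlap, and fell by 1.61 ± 0.32. Cox7a1 had 10.6, 24.3, 7.55 and 32.4 FPKM in KO AP against 35.4, 42.8, 37.9, 64.7 and 37.4 FPKM in WT AP, and fell by 1.36 ± 0.40. Ndufs6, Uqcr11 and Cox5b, accessory or structural subunits of complexes I, III and IV, fell by 1.01 ± 0.30, 0.92 ± 0.31 and 0.90 ± 0.30. Uqcr11 and Cox5b lost their calls without 13 and 12 single libraries. Cox7a1 lost its call without KO AP replicate 1 or 4 or WT AP replicate 2 or 4 (adjusted p up to 0.09), and Ndufs6 without KO AP replicate 1 or 4 or WT AP replicate 1 or 5 (up to 0.07). No single library left out ended the calls of Atp5k and Ndufa3 in AP.

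Cell type markers also differed between the colon groups. Smooth muscle markers summed to 1759 to 3267 FPKM in KO AP against 305 to 1908 FPKM in WT AP and to 2051 to 5707 FPKM in KO sham against 867 to 1306 FPKM in WT sham, with 5 of 6 called higher in both conditions. Colon epithelium markers summed to 4663 to 7481 FPKM in KO AP against 3002 to 5202 FPKM in WT AP, with 3 of 9 called higher and 2 lower. In sham they summed to 4029 to 7740 FPKM in KO against 3359 to 9691 FPKM in WT (medians 4834 and 3564 FPKM), with 0 of 9 called by limma and 2 at an unadjusted p under 0.05. The highest WT sham sum was that of replicate 2, where Car1 was at 4727 FPKM, against 190 to 253 FPKM in the other WT sham libraries. The sums of those other libraries lay below every KO sham sum. Red cell markers summed to 5.0 to 26.4 FPKM in KO AP against 103 to 270 FPKM in WT AP, with 4 of 4 called lower. Their part in the respiratory chain results was not tested.

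The mitochondrial mRNAs of colon had a median log2 change of 0.69 in KO AP against WT AP, with 0 of 13 called and 4 with an unadjusted limma p under 0.05, all higher. In KO sham against WT sham the median was -0.23, with 0 called higher and 3 lower. mt-Atp8 had 2208, 956, 1506, 1006 and 559 FPKM in KO sham against 2109, 5465, 1647, 2001 and 3152 FPKM in WT sham. KO sham replicate 1 lay among the WT sham libraries and the other 4 below them, and the change was -1.21 ± 0.38 (limma adjusted p = 0.0209), a call lost without KO sham replicate 5 or WT sham replicate 5 (up to 0.058). mt-Nd5 had 990, 281, 704, 536 and 239 FPKM in KO sham against 982, 2003, 932, 969 and 901 FPKM in WT sham, with the same replicate overlapping, and fell by 1.20 ± 0.35. mt-Nd4l fell by 1.81 ± 0.45. mt-Co1, the catalytic subunit of complex IV and the most abundant of the 13, averaged 26406 FPKM in KO AP and 13214 FPKM in WT AP, a change of 0.97 ± 0.39 that was not called (adjusted p = 0.0955). Of 20 tRNAs mt-Td, mt-Tg and mt-Tr were called higher in AP, where 7.37% of all genes tested were. Called lower in sham were mt-Tn, mt-Tc and mt-Ty, where 15.4% of all genes tested were. The calls of the first 3, all the mitochondrial calls of colon AP, were lost without 6, 6 and 5 single libraries (adjusted p up to 0.108, 0.101 and 0.0854), and none of the 3 was called without KO AP replicate 4 or WT AP replicate 2, 3 or 5. The 3 that were lower in sham are in the same cluster as those that fell in lung.

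Setting the 2 genomes against each other, the summed FPKM of the 13 mitochondrial mRNAs per summed FPKM of the nuclear members was taken in every library, as a description with no test. In colon the ratio was 3.31, 4.2, 5.95 and 5.03 in KO AP against 2.66, 2.16, 2.01, 2.91 and 2.19 in WT AP. It was 3.66, 1.23, 2.98, 1.77 and 1.13 in KO sham against 2.30, 3.44, 2.22, 2.36 and 2.84 in WT sham. All KO AP colons lay above all WT AP colons, and 3 of 5 KO sham colons lay below all WT sham colons. The mean log2 ratio was 2.17 ± 0.36 in KO AP and 1.24 ± 0.23 in WT AP (SD, n = 4 and 5), and 0.95 ± 0.75 in KO sham and 1.38 ± 0.27 in WT sham (SD, n = 5 each). In lung the ratio was 2.26, 3.81, 2.53, 8.61 and 4.41 in KO AP against 4.35, 3.73, 3.64, 7.68 and 4.04 in WT AP, and 4.03, 3.61, 3.42, 3.26 and 0.709 in KO sham against 3.37, 4.24, 3.76, 4.31 and 4.81 in WT sham. The lung groups overlapped in both conditions, and KO sham replicate 5 was the only library of either tissue with less mitochondrial than nuclear mRNA by this sum.

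**Figure D5:**
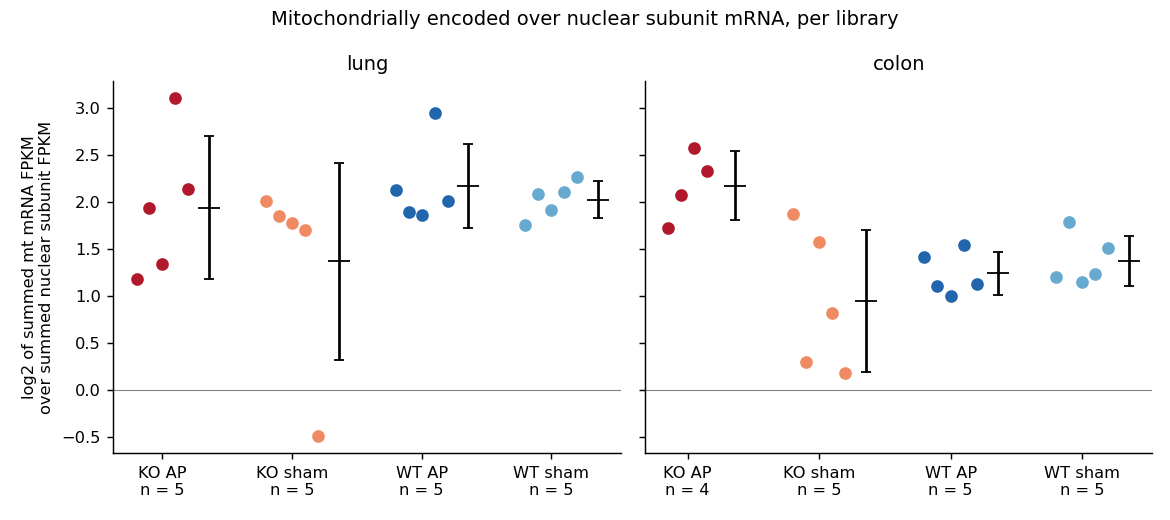
Log2 of the summed FPKM of 13 mitochondrial mRNAs over that of the nuclear members in each library of KO AP, KO sham, WT AP and WT sham, in lung (left) and colon (right). Black marks are means with SD. Colon KO AP libraries lie between 1.73 and 2.57, above the WT AP libraries at 1.0 to 1.54, and lung KO sham replicate 5 lies lowest at -0.50.

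Acute pancreatitis itself called no member. In AP against sham limma called 0 of 119 members in KO lung and 0 in WT lung, against 0.0125% and 0.0814% of all genes, and 0 of 116 in KO colon and 0 in WT colon, against 0.04% and 0.0% of all genes. The difference between the AP response in KO and that in WT called 0 members in either tissue, against 0.0% of all genes in lung and 0.0% in colon. At an unadjusted p under 0.05, KO lung had 2 members higher, Sdhd and the tRNA mt-Tq, and WT lung 1, Ndufa1, an accessory subunit of complex I. KO colon had 14 mitochondrial genes higher, 9 of them mRNAs, and 9 nuclear members lower, and WT colon had 0. For the difference, lung had 1 nuclear member lower, and colon 4 mitochondrial genes higher and 14 nuclear members lower. The shares of all genes given above are for adjusted calls, and these unadjusted counts have no such share beside them. In the colon difference many of all genes lay under the unadjusted threshold, since Ndufa11, at a limma p of 0.0460, had an adjusted p of 0.257.

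In KO colon all 13 mitochondrial mRNAs had a log2 change above 0 in AP against sham, with a median of 0.89, while 4 of 81 nuclear members had one above 0, with a median of -0.33, and the median over all genes was -0.03. mt-Nd5 had the lowest p, with 797, 1077, 1777 and 1571 FPKM in KO AP against 990, 281, 704, 536 and 239 FPKM in KO sham. KO sham replicate 1 overlapped the AP libraries, and the change of 1.38 ± 0.37 was not called (limma adjusted p = 0.0963). mt-Atp8 and mt-Nd4l had changes of 1.41 ± 0.40 and 1.55 ± 0.48 (adjusted p = 0.106 and 0.127). Without KO sham replicate 1, 5 mitochondrial genes were called higher and 1 nuclear member lower, with an adjusted p of 0.0107 for mt-Nd5, and without KO AP replicate 1, 4 mitochondrial genes were called higher. In WT colon the medians were 0.08 for the mitochondrial mRNAs and 0.20 for the nuclear members. For the difference between these responses mt-Atp8 had 1.64 ± 0.55 (adjusted p = 0.136), mt-Nd5 1.45 ± 0.51 (0.148) and Ndufa3 -1.26 ± 0.44 (0.149), and without KO sham replicate 1 it called 3 mitochondrial genes higher and 1 nuclear member lower. This difference shares its KO AP and KO sham libraries with the comparisons above.

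In KO lung mt-Nd4, in the membrane arm of complex I, averaged 3415 FPKM in AP and 2005 FPKM in sham, a change of 0.95 ± 0.47 that was not called (limma adjusted p = 0.374). KO AP replicate 4 had 6361 FPKM, against 1837.5 to 3052 FPKM in the other KO AP libraries. Sdhd averaged 105 FPKM in KO AP and 70.4 FPKM in KO sham, with a change of 0.46 ± 0.20 (adjusted p = 0.326). Its KO AP mean held 203 FPKM in replicate 3, the library with muscle and brown fat markers, against 61.0 to 91.4 FPKM in the others. In WT lung Ndufa1 averaged 71.9 FPKM in AP and 54.4 FPKM in sham, with a change of 0.40 ± 0.18 (adjusted p = 0.709), and Atp5g2, another gene for the c subunit, had 0.22 ± 0.13. In WT colon the lowest p was that of Ndufs7, at 159 FPKM in AP and 122 FPKM in sham (adjusted p = 0.801).

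Genes around the respiratory chain were read from lists chosen with earlier results known. Their counts stand against backgrounds of 27.6% of all genes called higher and 28.1% lower in lung AP, 28.8% and 30.0% in lung sham, 16.0% and 15.4% in colon sham, and 7.37% and 10.9% in colon AP, and the lists were not tested against each other. Mitochondrial ribosomal proteins, which translate the 13 mRNAs, were called higher in KO for 61 of 78 in lung AP, 69 in lung sham, 63 in colon sham and 3 in colon AP, where 1 was called lower. Their medians were 0.67, 0.84, 0.67 and -0.02. Membrane carriers and import genes were called higher for 18 of 26 in lung AP, 18 in lung sham with 1 lower, 18 in colon sham, and 2 in colon AP with 1 lower. Slc25a3, the phosphate carrier, averaged 385 FPKM in KO AP lungs and 187 FPKM in WT AP lungs (1.03 ± 0.14), and 836 FPKM in KO AP colons and 534 FPKM in WT AP colons (0.65 ± 0.17). Tomm40, the outer membrane import channel, rose by 1.28 ± 0.16 in KO AP lungs. Assembly factors were called higher for 24 of 45 and lower for 3 in lung AP, 26 and 2 in lung sham, 20 and 1 in colon sham, and 2 and 1 in colon AP. Pet100, an assembly factor of complex IV, averaged 6.59 FPKM in KO AP colons and 17.4 FPKM in WT AP colons and fell by 1.25 ± 0.25.

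Other carriers of electrons outside the 5 complexes and coenzyme Q genes were called higher for 11 of 16 in lung AP, 9 in lung sham with 1 lower, 7 in colon sham with 1 lower, and 2 in colon AP. Coq10b, a coenzyme Q binding protein, rose by 1.01 ± 0.14 in KO AP lungs and 1.47 ± 0.23 in KO AP colons. Tricarboxylic acid cycle genes, which feed NADH and succinate to the chain, were called higher for 10 of 18 in lung AP, 5 in lung sham, 9 in colon sham and 0 in colon AP, and none was called lower. In colon AP limma gave 0 of these 18 an adjusted p under 0.05 and 1 an unadjusted one, and Pdhb, of pyruvate dehydrogenase, had the lowest p, at 0.28 ± 0.13. Idh2, the NADP-dependent isocitrate dehydrogenase, rose by 0.77 ± 0.10 in KO AP lungs.

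Other lists held genes that act on mitochondrial DNA and RNA. For DNA maintenance and transcription 8 of 21 were called higher and 1 lower in lung AP, 11 and 1 in lung sham, 6 and 1 in colon sham and 2 and 0 in colon AP. Rrm2b, a ribonucleotide reductase subunit that supplies nucleotides for mitochondrial DNA, was the member that fell in lung AP, by 1.16 ± 0.12. For RNA processing and stability 11 of 20 were called higher and 1 lower in lung AP, 9 and 1 in lung sham, 10 and 1 in colon sham and 4 and 1 in colon AP. Fastk, whose mitochondrial form keeps mt-Nd6 mRNA stable, rose by 1.11 ± 0.14 in KO AP lungs. Regulators of biogenesis were called higher for 3 of 12 and lower for 3 in lung AP, and higher for 1 and lower for 4 in lung sham, shares in AP near the background. In colon 1 of 14 was called higher in AP, and 1 higher and 3 lower in sham. Uncoupling and mitophagy genes were called lower for 5 of 13 and higher for 2 in lung AP, and lower for 8 and higher for 2 in lung sham. In colon 1 of 11 was called higher in AP and 4 in sham. Pink1, the mitophagy kinase, averaged 79.5 FPKM in KO AP lungs and 125 FPKM in WT AP lungs and fell by 0.70 ± 0.20. Bnip3, a mitophagy receptor, averaged 37.4 FPKM in KO AP colons and 9.26 FPKM in WT AP colons and rose by 1.88 ± 0.29.

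Levels set side by side, from tables made separately and so without a test, placed the nuclear members higher in colon. Their mean over libraries had a median of 182 FPKM in colon and 91.7 FPKM in lung, while the 13 mitochondrial mRNAs had medians of 2437 FPKM in colon and 2426 FPKM in lung. The most abundant nuclear member was Cox6a1 in colon, at 1138 FPKM, and Cox4i1 in lung, at 442 FPKM. mt-Co1 was the most abundant of the 13 in both tissues, at 16161 FPKM in colon and 6833 FPKM in lung, and mt-Nd3 the least abundant, at 690 and 660 FPKM.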

How the data were processed

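Gene levels of 39 mRNA-enriched lung and colon libraries were read from 2 deposited tables, 1 per tissue, as FPKM, a unit that the authors computed per library. The submitters' processing notes name HISAT2 2.1.0, StringTie 1.3.3b and mm39. Neither the annotation nor the strand setting is given in the sources used here. Symbols came from a table that matched 52081 of 55357 Ensembl IDs. Groups came from the sample labels.

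Tests took genes that reached 1 FPKM in 4 or more libraries per tissue, on log2(FPKM + 1), so that changes of low genes are understated. The 4 groups of a tissue were fitted together in limma 3.58.1 (R 4.3.3) with an intensity trend, and p-values were adjusted by the Benjamini-Hochberg method over all genes of the tissue. FPKM hold no counts, so no count test was run; depth was derived from the FPKM that 1 read gives, with 98.2% to 98.6% of low values whole within 0.01. Steps were tested on simulated data. Python 3.11.15, pandas 2.3.3 and matplotlib 3.10.9 were used for summaries and plots.

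Members and lists were chosen with earlier results of these data known. Named were the mitochondrial mRNAs and rRNAs, complex II, the isoforms, in each other complex the 2 largest called rises and falls, the 3 lowest p for AP against sham and for the difference of responses, and up to 3 genes with the lowest p of each other list in AP. Alternatives were the pseudocount, filter, scaling, length trend, library weights, replicate block, groups fitted and each library left out. Mitochondrial sequences came from GENCODE M21 and promoters from RefSeq, GRCm38.p6, while the files use mm39, so coordinates are those of the promoter table alone. Same-numbered libraries did not deviate together in every pair, so numbers were not taken as pairs.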

Additional observations from a re-analysis of the deposited data

Results flagged for a closer look

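Within groups of 4 or 5 libraries, 135 of 460 member and sum values had a library far from the rest of its group by Dixon's criterion, 29.3%. The criterion flags about 1 in 20 of independent normal values, but these are FPKM read from the same libraries. Colon WT sham replicate 2, lung WT AP replicate 4 and colon KO sham replicate 2 alone gave 34, 30 and 26 flags. The 29.3% is therefore not set against 1 in 20. The values shown above that met the criterion came from 6 libraries.

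In lung, KO AP replicate 3 was high for the nuclear sum (19049 FPKM), Cox5a (455 FPKM), Ndufs7 (328 FPKM) and the muscle isoforms Cox6a2 (156 FPKM), Cox7a1 (70.9 FPKM) and Cox8b (180 FPKM). Its heart, skeletal muscle and brown fat markers were also high, and their part was not tested. KO sham replicate 5 had a nuclear sum of 20482 FPKM, a ratio of mitochondrial to nuclear mRNA of 0.709 and 65.8 FPKM of mt-Nd4l. WT AP replicate 4 was high for the mitochondrial mRNA sum (62211 FPKM), the nuclear sum (8099 FPKM) and their ratio (7.68). It was also high for Ndufa11 (84.6 FPKM), Ndufs7 (111 FPKM), Uqcrq (53.8 FPKM), mt-Co2 (5535 FPKM), mt-Co3 (4270 FPKM) and mt-Nd4l (2855 FPKM).

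In colon, KO sham replicate 2 was high for the nuclear sum (38763 FPKM), Ndufs7 (435 FPKM), Uqcrfs1 (560 FPKM), Atp5k (252 FPKM) and Ndufa3 (245 FPKM). WT AP replicate 4 was high for Cox7a1 (64.7 FPKM). WT sham replicate 2 was high for the mitochondrial mRNA sum (88154 FPKM), the nuclear sum (25590 FPKM), Cox7a1 (73.4 FPKM), Uqcrfs1 (218 FPKM) and mt-Nd5 (2003 FPKM).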

How the results depend on the processing

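Of 5150 alternative values of named genes, 4754 kept their direction and side of the threshold, 180 lost a call, 110 gained one, 106 changed sign without a call on either side, and no called value turned round. The muscle isoforms Cox6a2, Cox7a1 and Cox8b were among those that changed sign, in lung AP without KO AP replicate 3. In lung AP the 8 mitochondrial genes called in KO against WT became 2 with no filter, 3 with the length trend removed, 16 with library weights, 4 with only the compared groups and 5 without the 3 KO libraries. In lung sham the 7 became 3 with no filter, 3 with the length trend removed and 13 with weights, and the 66 nuclear members became 38 with the length trend removed. In colon AP the 3 mitochondrial genes became 0 with no filter, 6 with the length trend removed and 10 with weights. The 7 nuclear members there became 2 with no filter, 19 on the TPM scale, 14 scaled without mitochondrial genes and 11 with the length trend removed. In colon sham the 6 mitochondrial genes became 2 with no filter and 3 with the length trend removed, and the 24 nuclear members 38 with weights. For AP against sham, weights called 1 nuclear member in WT lung and 3 mitochondrial genes and 1 nuclear member in KO colon, and for the difference in colon 2 and 5. The causes were not tested. Shares of all genes called under each alternative are not given here. With the replicate block the 7 nuclear calls of colon AP became 4. Other counts under the replicate block stayed within 1.5 times, with 48 nuclear calls in lung AP, 64 in lung sham and 27 in colon sham. Correlations of same-numbered libraries ran from -0.28 to -0.11 in colon AP and from -0.09 to 0.24 in lung AP.

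With each library left out in turn, lung AP had 4 to 13 mitochondrial and 41 to 59 nuclear calls, and lung sham 4 to 11 and 54 to 68. Colon AP had 0 to 6 and 2 to 12, and colon sham 2 to 7 and 18 to 37. AP against sham in KO colon had 0 to 5 mitochondrial and 0 to 1 nuclear calls, the difference in colon 0 to 3 and 0 to 1, and the other AP comparisons 0 to 0. The log2 ratio of mitochondrial to nuclear mRNA differed between KO and WT by -0.52 to -0.04 in lung AP, -0.82 to -0.19 in lung sham, 0.80 to 1.08 in colon AP and -0.66 to -0.24 in colon sham. Between AP and sham it differed by 0.10 to 0.76 in KO lung, -0.05 to 0.22 in WT lung, 1.03 to 1.46 in KO colon and -0.21 to -0.04 in WT colon. Genotype and depth cannot be told apart in the comparisons of KO with WT.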

Other observations

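The mitochondrial mRNAs with the lowest KO to WT changes lie beside others that did not share them. The ratio of mt-Nd5 to mt-Cytb, which are not direct neighbours, gave the same split. This ratio was chosen after its values were seen and was not tested. In lung it ran from 0.112 to 0.233 in KO AP against 0.375 to 0.407 in WT AP, and from 0.161 to 0.250 in KO sham against 0.393 to 0.417 in WT sham. In colon it ran from 0.142 to 0.196 in KO AP against 0.205 to 0.283 in WT AP, and from 0.0812 to 0.157 in KO sham against 0.223 to 0.295 in WT sham. The rRNA ratio of mt-Rnr2 to mt-Rnr1 was higher in KO in colon AP with little overlap, at 0.669 to 0.895 against 0.621 to 0.691 in WT AP. Only KO AP replicate 1 lay within the WT AP range. In colon sham it overlapped, at 0.585 to 0.830 in KO against 0.656 to 0.874 in WT. In lung it was lower in KO with little overlap, at 0.543 to 0.752 in KO AP against 0.75 to 0.958 in WT AP and at 0.590 to 0.774 in KO sham against 0.764 to 0.919 in WT sham.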
